A study of Mus musculus with 8 samples.

Results

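Mitochondrial biogenesis in muscle is run by a small circuit of transcriptional regulators, and 10 of its genes were followed here in gastrocnemius (GAS) muscle depleted of MYTHO. They are the coactivators *Ppargc1a* and *Ppargc1b*, the muscle regulator *Perm1* and the estrogen-related receptors *Esrra*, *Esrrb* and *Esrrg*. The others are the fatty acid receptors *Ppara* and *Ppard*, the respiratory factor *Nrf1* and the mitochondrial DNA factor *Tfam*. Each of the 10 was taken from the row of the table that carries its gene symbol. All were found, with 1 probe set each among the 22206 of the table. A probe set is a group of short probes read together as the signal of 1 gene. The rows of *Esrra* and *Ppard* also name a second transcript, *Mir6990* and 1810013A23Rik, so their signals cannot be given to a single transcript.

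The proteins of this circuit act in layers. PGC-1 alpha, encoded by *Ppargc1a*, and PGC-1 beta, encoded by *Ppargc1b*, do not bind DNA themselves but are recruited by nuclear receptors and other factors, and PGC-1 alpha rises with endurance exercise, cold and fasting. The estrogen-related receptors and the PPARs are nuclear receptors that switch on genes of fatty acid use and respiration. NRF-1 drives genes of the respiratory chain and of the mitochondrial import and transcription machinery. TFAM packs the mitochondrial genome and takes part in its transcription.

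The mice were male, of the C57/Bl6j strain, about 10 weeks old at injection and 14 weeks old by their label. GAS muscle of 1 leg received an adeno-associated virus (AAV) with a short hairpin RNA against the MYTHO transcript, called AAV sh-RNA MYTHO. The other leg of the same mouse received AAV sh-RNA scrmb, which carries a scrambled hairpin and serves as the control. Both hairpins were driven by the U6 promoter, which is active in every cell type, and the AAV was of a serotype known to favour skeletal muscle cells. Muscles were taken 3 weeks later, 4 per group, and total RNA was read on 8 Clariom S Mouse arrays. Column names tie each pair of legs to 1 animal, and the animals are called A to D.

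Values are log2 signals, on which 1 unit is a doubling of the signal, and the order of brightness between probe sets does not give the order of the transcripts. The targeted gene, listed as D230025D16Rik, checked the labels first. Its log2 signal was 10.78 to 11.35 in scrmb arrays and 8.08 to 8.80 in MYTHO arrays, lower in 4 of 4 animals, a log2 fold change of -2.81 with a standard error (SE) of 0.21 and a limma adjusted p of 0.00044. Markers of skeletal muscle were bright on every array, with *Ckm* at 18.00 to 18.37 and *Des* at 17.24 to 17.75, while *Acta1* was saturated on all 8 arrays and *Mylpf* and *Tnnt3* lay near the ceiling. The MYTHO array of animal D and the scrmb array of animal A stood apart from their groups for slow-fibre markers, and values of a regulator that moved by over 1.5 times without an array or an animal are given beside it, as a range where the log2 fold change was near 0.

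No regulator of the circuit passed the test after adjustment. In limma, 0 of the 10 had a Benjamini-Hochberg adjusted p under 0.05, where 6 of all 22206 probe sets, or 0.027%, did. At an unadjusted p under 0.05, 1 of the 10 was counted, *Esrrb*, against 12.4% of all probe sets. *Esrrb* was also the only one whose 4 MYTHO arrays all lay on 1 side of the 4 scrmb arrays, which 6.46% of all probe sets did. The log2 fold changes, given throughout as MYTHO minus scrmb, ran from -0.33 for *Nrf1* to 0.69 for *Esrrb*, 6 positive and 4 negative, with a median of 0.18 beside -0.005 for all probe sets. The share of regulators counted was near that of the whole table, so these counts do not set the circuit apart.

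**Figure D1:**
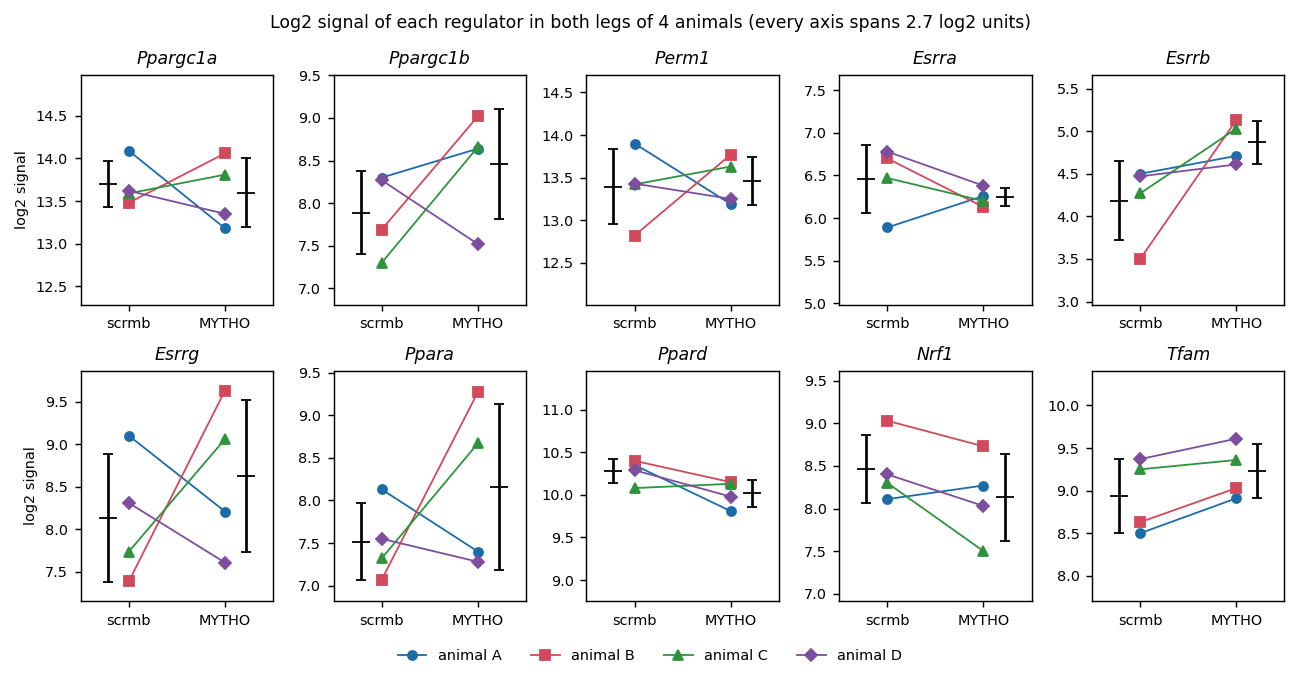
Log2 signal (y axis, each panel 2.7 units high) of the 10 regulators in the scrmb leg and the MYTHO leg (x axis) of animals A to D, with a line for each animal and, in black, the mean ± SD of 4 arrays. Lines run in both directions for all but *Esrrb* and *Tfam*, which were higher in the MYTHO leg of 4 of 4 animals.

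*Ppargc1a* lies on chromosome 5 (GRCm38.p6, 51454249 to 52115853). Its signal in scrmb arrays of animals A to D was 14.09, 13.48, 13.59 and 13.62, and in MYTHO arrays it was 13.18, 14.06, 13.81 and 13.35. The highest of all 8 arrays was the scrmb leg of animal A and the lowest was the MYTHO leg of the same mouse, and the groups overlapped, with 2 MYTHO arrays, those of animals A and D, below every scrmb array. On average scrmb arrays read 13.70 ± 0.27 (SD, n = 4) and MYTHO arrays 13.60 ± 0.41 (SD, n = 4). This is a log2 fold change of -0.10 with an SE of 0.23 (limma adjusted p 0.907), and its 95% interval, from -0.60 to 0.41, holds folds from 0.66 to 1.33. With 4 arrays per group, the folds within that range, losses as well as gains, cannot be told apart. The difference between legs was -0.91 in animal A, 0.58 in B, 0.22 in C and -0.27 in D. The sign of the mean difference rested on animal A: without its scrmb array the log2 fold change was 0.04, without its MYTHO array 0.045, and without both 0.18. Over all fits without an array or an animal it ran from -0.32 to 0.18.

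*Ppargc1b* lies on chromosome 18 (61291445 to 61400756). It read 8.30, 7.69, 7.30 and 8.27 in scrmb arrays and 8.64, 9.02, 8.66 and 7.52 in MYTHO arrays. The MYTHO arrays of animals A, B and C were above every scrmb array, and that of animal D was below all but one of them. With all arrays the log2 fold change was 0.57 with an SE of 0.33 (limma unadjusted p 0.106, adjusted p 0.514). Without the MYTHO array of animal D it was 0.88 (unadjusted p 0.0076, adjusted p 0.244), and without both arrays of animal D it was 1.01 (unadjusted p 0.0049, adjusted p 0.156). In both of these the groups no longer overlapped, and in neither did *Ppargc1b* pass after adjustment. Some of the other fits lowered the value, to 0.37 without the scrmb array of animal C (unadjusted p 0.286), 0.38 without the MYTHO array of B (0.280), 0.32 without both arrays of B (0.419) and 0.31 without both of C (0.428).

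*Perm1* encodes a muscle protein that is induced by PGC-1 alpha and by estrogen-related receptors and acts with them on genes of energy metabolism. The gene lies on chromosome 4 (156203262 to 156221307). Its signal was 13.90, 12.82, 13.42 and 13.43 in scrmb arrays against 13.19, 13.77, 13.63 and 13.25 in MYTHO arrays. All MYTHO values lay within the span of the scrmb values. The log2 fold change was 0.07 with an SE of 0.24 and a 95% interval from -0.46 to 0.59 (limma adjusted p 0.942). Its sign rested on animal B, and it became -0.12 without the scrmb array of that mouse, -0.04 without its MYTHO array and -0.23 without both, in a range that ended at 0.33 without both arrays of animal A. As in *Ppargc1a*, the MYTHO leg was lower in animals A and D (-0.71 and -0.18) and higher in B and C (0.95 and 0.21).

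The proximal promoters of 4 regulators are shown because they set a coactivator and a muscle regulator beside a receptor and a mitochondrial effector. The RefSeq table (GRCm38.p6) held entries for 9 of the 10 genes, with 14 start sites in all, and *Ppargc1b* had none. Each sequence is the 250 bases before the annotated start, read 5′ to 3′ on the strand of the gene. Capitals mark a match to 1 of the 6 motifs searched on both strands: the estrogen-related receptor site TNAAGGTCA, its core AGGTCA that many nuclear receptors bind, the NRF-1 site GCGCANGCG, the cAMP element TGACGTCA, the FoxO site GTAAACA and the ETS site CCGGAAG that NRF-2 binds. The AGGTCA core lies inside the longer receptor site, so a match to the latter counts for both.
*Ppargc1a*, chr5:51567726-51567975, minus strand: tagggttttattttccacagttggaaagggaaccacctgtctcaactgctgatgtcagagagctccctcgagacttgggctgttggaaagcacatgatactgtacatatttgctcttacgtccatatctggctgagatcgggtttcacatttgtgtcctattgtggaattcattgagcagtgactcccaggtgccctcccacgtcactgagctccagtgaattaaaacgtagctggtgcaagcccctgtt
*Perm1*, chr4:156215677-156215926, plus strand: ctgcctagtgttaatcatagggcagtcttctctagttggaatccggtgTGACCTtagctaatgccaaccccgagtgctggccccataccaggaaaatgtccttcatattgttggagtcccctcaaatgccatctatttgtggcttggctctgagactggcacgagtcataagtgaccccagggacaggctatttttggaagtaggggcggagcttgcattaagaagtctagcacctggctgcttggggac
*Ppara*, chr15:85735526-85735775, plus strand: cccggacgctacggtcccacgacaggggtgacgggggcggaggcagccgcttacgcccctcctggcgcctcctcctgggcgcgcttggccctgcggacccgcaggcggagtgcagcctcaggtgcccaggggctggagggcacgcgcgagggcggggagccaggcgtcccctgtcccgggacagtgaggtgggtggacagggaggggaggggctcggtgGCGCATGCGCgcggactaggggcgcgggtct
*Tfam*, chr10:71238045-71238294, minus strand: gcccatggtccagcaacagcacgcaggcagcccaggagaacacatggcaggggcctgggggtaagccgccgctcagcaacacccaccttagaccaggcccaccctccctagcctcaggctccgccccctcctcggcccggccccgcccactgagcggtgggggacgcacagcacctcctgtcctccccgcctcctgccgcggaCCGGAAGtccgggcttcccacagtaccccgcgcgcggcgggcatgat

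The promoters shown differed in base content, with 48.0% G or C in *Ppargc1a* and 51.2% in *Perm1* against 76.4% in *Ppara* and 72.0% in *Tfam*. *Perm1* held the AGGTCA core on the opposite strand, printed as its reverse complement, with its first base 202 bases before the start. In *Ppara*, the NRF-1 motif stood 31 bases before the start, and 30 bases before it when the same palindromic stretch is read on the other strand. *Tfam* held the ETS motif 47 bases before its start, and of the promoters not printed, that of *Esrra* held the NRF-1 motif at 141 bases. None of the 6 motifs was found in this window of *Ppargc1a*, *Esrrb*, *Esrrg*, *Ppard* or *Nrf1*. Among all 32851 promoters of the table, windows of the same length held the AGGTCA core in 14%, the ETS motif in 6.91%, the NRF-1 motif in 5.16%, the FoxO motif in 3.17%, the cAMP element in 1.55% and the longer receptor site in 1.14%. A match is a run of letters and was not tested as a bound site.

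Of the estrogen-related receptors, *Esrra*, the PGC-1 partner on genes of respiration, lies on chromosome 19 (6910977 to 6922048) and had a log2 signal of 5.89, 6.70, 6.47 and 6.78 in scrmb arrays and 6.26, 6.13, 6.20 and 6.38 in MYTHO arrays. Of the scrmb arrays, 3 were above every MYTHO array and that of animal A was below them all. The log2 fold change was -0.22 with an SE of 0.21 (limma unadjusted p 0.327, adjusted p 0.735). Without the scrmb array of animal A it was -0.41, the groups were separate and the unadjusted p was 0.0484, with an adjusted p of 0.432, and without both arrays of that animal it was also -0.41 (unadjusted p 0.0762). It shrank to -0.14 without the scrmb array of animal B (unadjusted p 0.568), -0.11 without that of D (0.629) and -0.10 without both arrays of B (0.707).

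*Esrrb*, best known from pluripotent stem cells, lies on chromosome 12 (86361117 to 86521628). It read 4.50, 3.50, 4.27 and 4.47 in scrmb arrays and 4.71, 5.13, 5.03 and 4.61 in MYTHO arrays. Every MYTHO array was above every scrmb array, with 0.11 between the nearest values. Its log2 fold change was 0.69 with an SE of 0.24 and a 95% interval from 0.16 to 1.21, a fold of 1.11 to 2.32. The limma unadjusted p was 0.0155 and the adjusted p 0.283, and with animal as a block they were 0.0289 and 0.334. The MYTHO leg was higher in 4 of 4 animals, by 0.21, 1.63, 0.76 and 0.14 in A to D, so animal B gave the largest part of the mean. Without both arrays of animal B the log2 fold change was 0.37 (unadjusted p 0.116), and without both of animal C it was 0.66 (unadjusted p 0.0552). This was a dim probe set, at percentile 12.2 of the table by mean signal, and whether its signal stood above background on these arrays was not tested.

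*Esrrg*, the receptor most associated with oxidative, well-vascularised muscle, lies on chromosome 1 (187608510 to 188214885). Its signal was 9.10, 7.39, 7.74 and 8.31 in scrmb arrays and 8.21, 9.63, 9.06 and 7.61 in MYTHO arrays. The scrmb array of animal A lay above all but the MYTHO array of animal B, and the groups overlapped. Its log2 fold change was 0.49 with an SE of 0.44 and a 95% interval from -0.47 to 1.46 (limma adjusted p 0.707). The difference between legs was -0.89 in animal A and -0.70 in D, but 2.24 in B and 1.32 in C. Without the scrmb array of animal A the log2 fold change was 0.81 (unadjusted p 0.0823), without the MYTHO array of D 0.83 (0.0733), and without both arrays of A 0.95 (0.0643) or of D 0.89 (0.0862). It was 0.24 without the scrmb array of animal B, 0.16 without its MYTHO array and -0.09 without both, and 0.22 without both arrays of C.

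Of the fatty acid receptors, *Ppara* lies on chromosome 15 (85734910 to 85806851) and is the main sensor for genes of fatty acid oxidation. It read 8.13, 7.07, 7.32 and 7.55 in scrmb arrays and 7.40, 9.27, 8.67 and 7.28 in MYTHO arrays. The MYTHO arrays of animals B and C were the highest of the 8, while those of A and D lay among the scrmb values. The log2 fold change was 0.64 with an SE of 0.41 and a 95% interval from -0.26 to 1.53 (limma unadjusted p 0.147, adjusted p 0.571). It was 0.93 without the MYTHO array of animal D (unadjusted p 0.0418), 1.09 without both arrays of animal A (unadjusted p 0.0288) 0.27 without the MYTHO array of animal B (unadjusted p 0.472), 0.40 without both arrays of C (unadjusted p 0.444) and 0.12 without both arrays of B (unadjusted p 0.764), and the adjusted p stayed at 0.394 or above in all of these.

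*Ppard*, the PPAR most associated with oxidative fibres, lies on chromosome 17 (28232754 to 28301469). Its signal was 10.35, 10.40, 10.08 and 10.29 in scrmb arrays and 9.81, 10.15, 10.13 and 9.98 in MYTHO arrays. The scrmb array of animal C lay within the MYTHO values and the other 3 lay above them. The spread was narrow, with an SD of 0.14 in scrmb and 0.16 in MYTHO arrays. Its log2 fold change was -0.26 with an SE of 0.17 and a 95% interval from -0.63 to 0.11 (limma adjusted p 0.574). The difference was negative in animals A, B and D (-0.54, -0.25 and -0.31) and 0.05 in C, and the log2 fold change was -0.17 without both arrays of A.

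*Nrf1* (chromosome 6, 30047985 to 30153458) and *Tfam* (chromosome 10, 71225468 to 71238328) stand at the lower end of the circuit, where NRF-1 is a known activator of *Tfam*. *Nrf1* read 8.11, 9.03, 8.30 and 8.40 in scrmb arrays and 8.27, 8.73, 7.50 and 8.03 in MYTHO arrays, a log2 fold change of -0.33 with an SE of 0.28 (limma adjusted p 0.687). Animal B was highest in both groups, and the MYTHO leg was lower in B, C and D (-0.30, -0.80 and -0.37) but not in A (0.16). Its log2 fold change was -0.12 without the MYTHO array of animal C, -0.14 without the scrmb array of B, -0.17 without both arrays of C and -0.53 without the MYTHO array of B (unadjusted p 0.0754). *Tfam* read 8.50, 8.63, 9.25 and 9.37 in scrmb arrays and 8.91, 9.03, 9.36 and 9.61 in MYTHO arrays. Animals C and D were above A and B in both legs, and the groups overlapped. The MYTHO leg was nevertheless higher in 4 of 4 animals, by 0.41, 0.40, 0.11 and 0.24, for a log2 fold change of 0.29 with an SE of 0.25 and a 95% interval from -0.24 to 0.82. Its limma unadjusted p was 0.260 without a block and 0.137 with animal as a block, and the adjusted p was 0.688 and 0.536. Without the scrmb array of animal A the log2 fold change was 0.14, without that of B 0.19 and without the MYTHO array of D 0.16. *Nrf1* and *Tfam* thus had mean differences of opposite sign, neither of which passed the test.

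**Figure D2:**
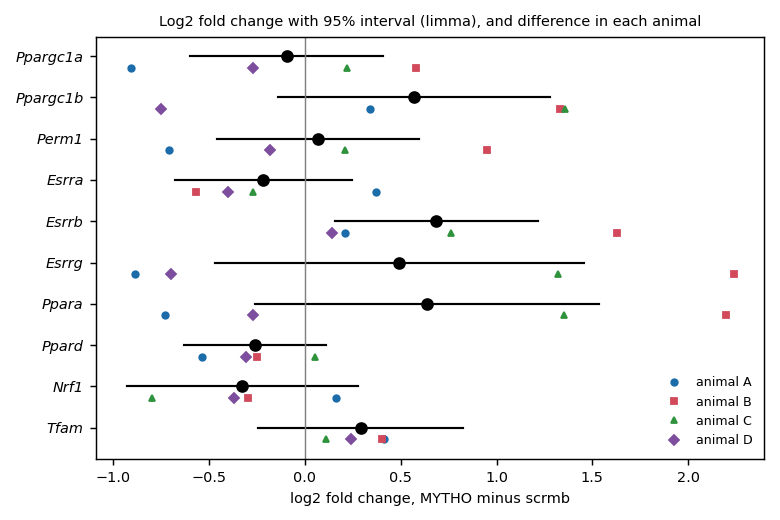
Log2 fold change, MYTHO minus scrmb (x axis), of the 10 regulators, with black points for the limma estimate, black lines for its 95% interval and small coloured marks for the difference between legs of animals A to D. The interval of *Esrrb* alone leaves out 0, while the marks of *Esrrg* and *Ppara* span more than those of the others, from below -0.7 to above 2.

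Of the 10 regulators, 4 shared a pattern over arrays that did not follow the groups. For *Ppargc1a*, *Perm1*, *Esrrg* and *Ppara*, the 3 highest arrays were the same: the scrmb array of animal A and the MYTHO arrays of animals B and C. The 3 arrays were taken as the highest of *Ppargc1a*, so this gene has them by definition. This pattern was noticed after the values were seen and has no test. In the whole table, 513 of 22206 probe sets, or 2.31%, had these 3 arrays on top. *Ppargc1b* had the MYTHO arrays of B, C and A on top, in that order, with the scrmb array of animal A next. *Esrra*, *Esrrb*, *Ppard*, *Nrf1* and *Tfam* did not share it, and *Tfam* was lowest of all in the scrmb array of animal A.

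The same 3 arrays led 11 of 25 listed PPAR and estrogen-related receptor targets in fatty acid use. These were the mitochondrial oxidation genes *Cpt2*, *Slc25a20*, *Acadl*, *Acadvl*, *Hadha*, *Hadhb* and *Etfdh*, the pyruvate dehydrogenase kinase *Pdk4*, the fatty acid binding protein *Fabp3*, the lipid droplet protein *Plin5* and the thioesterase *Acot2*. They led 2 of 16 respiration targets (*Sdhb* and *Ckmt2*), 2 of 11 other genes that PGC-1 alpha raises in muscle (*Mb* and *Fndc5*), 1 of 17 partners and coregulators (*Gabpb2*), and 0 of 21 upstream regulators and 0 of 18 genes of mitochondrial DNA upkeep. The mean log2 signal of the 25 fatty acid targets was 11.92, 11.53, 11.21 and 11.62 in scrmb arrays and 11.69, 12.63, 12.10 and 11.69 in MYTHO arrays. It was highest where *Ppara* was highest, in the MYTHO legs of animals B and C.

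**Figure D3:**
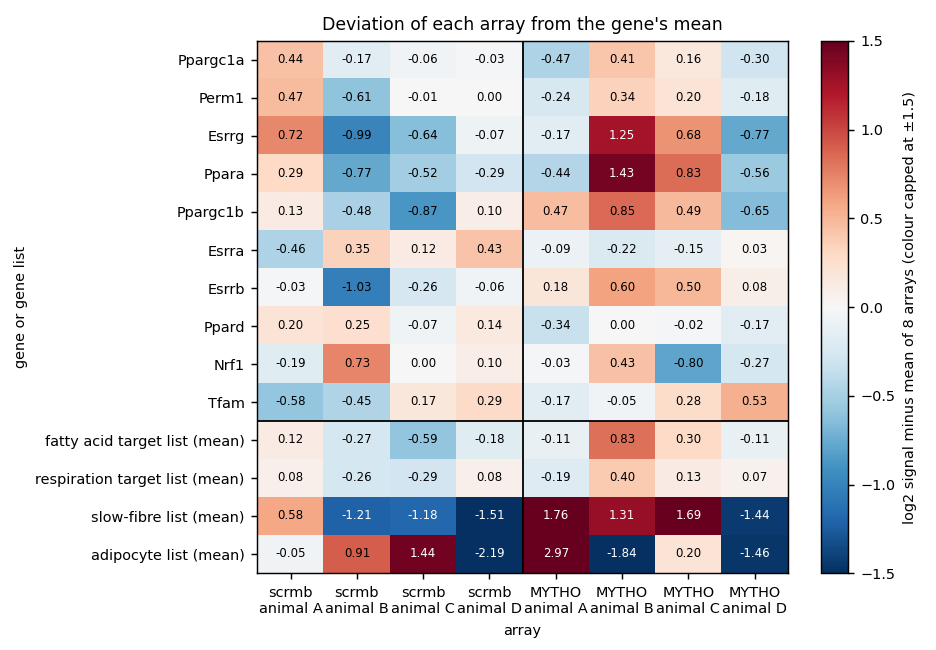
Log2 signal minus the mean of 8 arrays (colour and printed number, colour capped at 1.5 either way) for the 10 regulators and 4 gene list means (rows) on each array (columns, scrmb left and MYTHO right of the line). *Ppargc1a*, *Perm1*, *Esrrg* and *Ppara* are red in scrmb animal A and in MYTHO animals B and C, whereas the slow-fibre row is red in MYTHO animal A too, where these 4 genes are blue.

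Slow-fibre markers were high in the same 3 arrays as these 4 regulators and in 1 more. The mean log2 signal of 8 slow-fibre sarcomere genes (*Myh7*, *Myl2*, *Myl3*, *Tnnc1*, *Tnni1*, *Tnnt1*, *Tpm3* and *Atp2a2*) was 13.70, 11.91, 11.94 and 11.61 in scrmb arrays and 14.88, 14.43, 14.81 and 11.68 in MYTHO arrays. It was high in the scrmb array of animal A and the MYTHO arrays of B and C, as for the 4 regulators, but highest of all in the MYTHO array of animal A, where *Ppargc1a* was at its lowest. In limma, 7 of the 8 were higher at an unadjusted p under 0.05, none passed after adjustment (lowest adjusted p 0.280), and the groups overlapped in all 8. None of the 8 slow-fibre genes had the scrmb array of animal A and the MYTHO arrays of B and C as its top 3. In the MYTHO array of animal D the slow-fibre mean was within the range of 3 scrmb arrays, and *Ppargc1b*, *Esrrg* and *Ppara* were low there too. The part of slow-fibre content in these values was not tested, and in whole muscle fewer cells of a type cannot be told apart from less RNA per cell.

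Other cell types were read from their markers. Adipocyte markers (*Adipoq*, *Plin1*, *Cfd*, *Lep* and *Cidec*) had a mean of 7.42, 8.38, 8.91 and 5.28 in scrmb arrays and 10.44, 5.63, 7.67 and 6.01 in MYTHO arrays, with 0 of 5 at an unadjusted p under 0.05. They were low in the MYTHO array of animal B, where *Ppara* and *Esrrg* were highest. The mean of the brown adipocyte markers *Ucp1* and *Cidea* lay between 3.99 and 4.92. Endothelial markers (*Pecam1*, *Cdh5*, *Kdr* and *Tek*) had a mean of 10.27 to 10.86 in scrmb arrays and 11.05 to 11.28 in MYTHO arrays, and 2 of the 4, *Pecam1* and *Tek*, were higher at an unadjusted p under 0.05. These means did not overlap between the groups, as was the case for *Esrrb*, and their part in its value was not tested. Of 3 fibroblast markers 1 was lower at that threshold (*Dcn*), of 3 satellite cell markers 1 was higher (*Cdh15*), and of 4 blood, 4 macrophage and 4 Schwann cell markers 0 passed.

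The genes whose signals most resembled that of *Ppargc1a* over the 8 arrays were sought among 10530 bright, unsaturated probe sets naming 1 gene. The highest Pearson correlations were with *Mfap3l* (r = 0.96), *Tsnax* (0.95) and *Tmem241* (0.95), and the lowest with *Tcf25* (-0.97), *Tstd2* (-0.97) and *Rps25* (-0.96). For *Esrrb*, the regulator with the largest log2 fold change, they were *Tmem88* (0.98), *Agap1* (0.97) and *Ndufa1* (0.96), and *Snx30* (-0.98), *Psma4* (-0.97) and *Prdx4* (-0.97). No listed regulator or target of the circuit was among the 3 genes most like *Ppargc1a*, and 1 subunit of respiratory complex I, *Ndufa1*, was among the 3 most like *Esrrb*. These are the extremes of some 10530 values over 8 arrays that share animals, and they describe these arrays alone.

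The rest of the pathway was read from 6 lists with 108 genes in all. In limma, 0 of the 108 had an adjusted p under 0.05, the lowest being 0.248. At an unadjusted p under 0.05, 16 were higher in MYTHO muscle, where 4.81% of all probe sets were, and 1 was lower, where 7.58% of all were. Their median log2 fold change was 0.18. The count of 16 rested on animals B and C, and was 6 without the MYTHO array of B, 9 without that of C, 10 without the scrmb array of B, 6 without that of C, and 2 without both arrays of either mouse.

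Fatty acid targets held 6 of the 16. Of 25 genes, 23 had a positive log2 fold change, where 10957 of all 22206 probe sets did. Their median was 0.44, and none was lower at an unadjusted p under 0.05. Since 11 of the 25 were led by the same 3 arrays, these genes are not independent results. Slow-fibre markers (median log2 fold change 1.59) and endothelial markers (median 0.47) had positive medians as well, and their part in the values of this list was not tested. *Lpl*, which frees fatty acids from circulating lipoproteins, read 13.33, 12.14, 12.20 and 12.96 in scrmb arrays and 13.80, 15.00, 14.51 and 12.65 in MYTHO arrays, a log2 fold change of 1.33 with an SE of 0.44 (limma adjusted p 0.257). *Cd36*, a fatty acid carrier of the cell surface, read 14.55, 14.01, 14.06 and 14.01 against 14.83, 15.30, 15.20 and 14.27, a log2 fold change of 0.74 with an SE of 0.24 (adjusted p 0.251). In both genes the MYTHO arrays of animals A, B and C lay above every scrmb array and that of animal D did not. *Acsl1*, which activates fatty acids for oxidation, was the only gene of the list with no overlap, at 11.85 to 12.57 in scrmb arrays and 12.59 to 13.27 in MYTHO arrays (log2 fold change 0.67, SE 0.23, adjusted p 0.266). The others counted were the thiolase *Acaa2* (0.87, SE 0.32, adjusted p 0.308), *Fabp3* (0.77, SE 0.34, adjusted p 0.388) and *Acot2* (0.76, SE 0.34, adjusted p 0.401). Without both arrays of animal B, *Lpl* was 0.82, *Acsl1* 0.42, *Acaa2* 0.44 and *Fabp3* 0.49. *Acaa2* was 0.56 without the MYTHO array of B, where *Acot2* was 0.48, and *Acot2* was 0.46 without the scrmb array of C and 0.45 without both arrays of C. *Fabp3* was 0.43 without both arrays of C and 1.17 without both of A. With animal as a block, 8 of the 25 were counted, since *Fabp3* was lost (unadjusted p 0.0628) and *Cpt1b*, *Ucp3* and *Ucp2* were gained (0.0420, 0.0203 and 0.0294).

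Upstream regulators of PGC-1 had 4 of 21 genes higher and 1 lower at an unadjusted p under 0.05, with a median of 0.07. *Hdac5*, a repressor of *Ppargc1a* transcription, read 5.81 to 6.27 in scrmb and 6.49 to 7.01 in MYTHO arrays (log2 fold change 0.57, SE 0.19, limma adjusted p 0.252). Its row also names *Mir8101*, so the signal cannot be given to a single transcript. *Crtc2*, a coactivator of the cAMP factor CREB, read 10.52 to 11.43 against 11.54 to 12.10 (0.67, SE 0.24, adjusted p 0.283). *Kat2a*, the acetylase GCN5 that inactivates PGC-1 alpha, read 7.43 to 7.69 against 7.78 to 8.23 (0.49, SE 0.18, adjusted p 0.299). *Prkab1*, a regulatory subunit of AMPK, was the fourth higher gene (0.56, SE 0.25, adjusted p 0.390), at 0.35 without the scrmb array of animal C. *Stk11*, the kinase LKB1 that activates AMPK, was the one lower gene at 13.01 to 13.53 against 12.27 to 13.15 (-0.55, SE 0.22, adjusted p 0.333). *Mapk14*, the p38 kinase that activates PGC-1 alpha, missed that threshold but did not overlap between groups, at 12.72 to 13.00 against 12.32 to 12.70 (-0.33, SE 0.17, unadjusted p 0.0799, adjusted p 0.469). The higher genes thus held a coactivator of CREB and an AMPK subunit as well as repressors of PGC-1 alpha. With animal as a block *Camkk2*, a kinase that activates AMPK, was counted too (unadjusted p 0.0418).

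**Figure D4:**
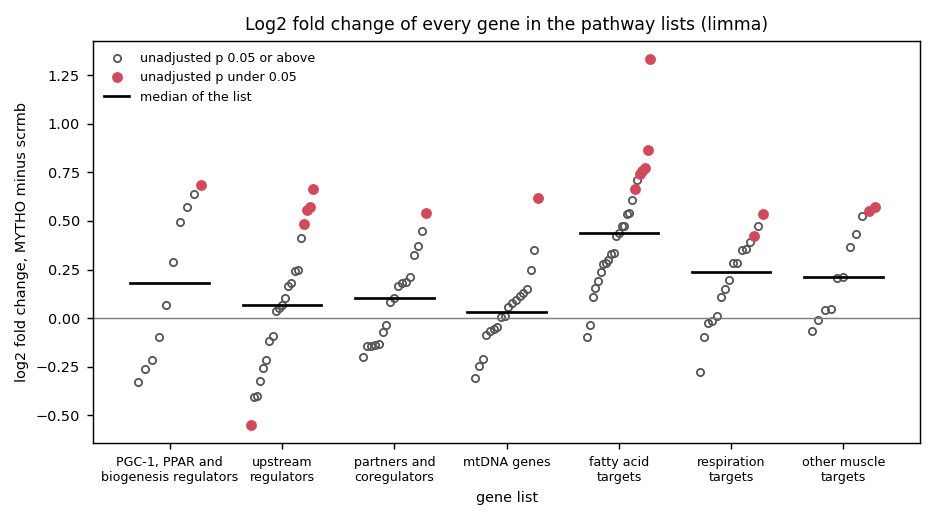
Log2 fold change, MYTHO minus scrmb (y axis), of every gene in the circuit and in the 6 pathway lists (x axis), each gene a circle, filled where the limma unadjusted p is under 0.05, with a black line at the median of the list. The fatty acid targets have the highest median, 0.44, and the genes of mitochondrial DNA upkeep (mtDNA genes) the lowest, 0.03.

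The other lists held few genes past the unadjusted threshold. Respiration targets had 2 of 16 higher, *Cox4i1* of complex IV (log2 fold change 0.54, SE 0.23, limma adjusted p 0.380) and *Atp5a1* of the ATP synthase (0.43, SE 0.19, adjusted p 0.386), with a median of 0.24. With animal as a block neither was counted (unadjusted p 0.0574 and 0.0717), and without both arrays of animal B they were 0.30 and 0.28. Other muscle genes that PGC-1 alpha raises had 2 of 11, the oxygen store *Mb* (0.55, SE 0.21, adjusted p 0.326) and the kynurenine aminotransferase *Kyat1* (0.57, SE 0.23, adjusted p 0.341), with a median of 0.21. *Kyat1* was not counted with the block (unadjusted p 0.0509) and was 0.34 without both arrays of animal B, and *Mb* was 0.35 without both of C. Partners and coregulators had 1 of 17, the Mediator subunit *Med1* that links nuclear receptors to transcription (0.54, SE 0.24, adjusted p 0.379), with a median of 0.10, and *Med1* was 0.33 without the scrmb array of animal C and 0.28 without both arrays of C. The upkeep of mitochondrial DNA, the process *Tfam* belongs to, had 1 of 18, the matrix protease *Lonp1* that degrades TFAM (0.62, SE 0.20, adjusted p 0.248), with a median of 0.03. *Tfb1m*, a methylase of the mitochondrial ribosome, was the only gene of that list with no overlap between groups, at 8.08 to 8.23 in scrmb and 7.79 to 7.91 in MYTHO arrays (-0.31, SE 0.16, unadjusted p 0.0703, adjusted p 0.449). *Pparg*, the adipocyte PPAR and one of the partners, read 7.58, 9.00, 8.67 and 6.67 in scrmb arrays and 10.04, 7.55, 8.20 and 7.92 in MYTHO arrays, high and low in much the same arrays as the adipocyte markers.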

How the data were processed

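Total RNA of GAS muscle was hybridised to Clariom S Mouse arrays, 4 per group. The authors deposited log2 signals from Transcriptome Analysis Console 4.0.1 at default settings, per the file headers by gene-level SST-RMA, which quantile normalizes, so that a shift of all genes alike would not show. Annotation release 36 on mm10 was used. No regulator reached the ceiling of 19.93. Deposited group averages, fold changes and p-values were not used.

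The signals were fitted with limma 3.58.1 (R 4.3.3), lmFit and eBayes, two-sided and without a pairing term, since the array methods of the study name an eBayes ANOVA and no pairing, with Benjamini-Hochberg adjustment over all probe sets. The code was tested on simulated data. Animal was a block in an alternative, as each gave both legs. Other alternatives were quantile normalization, median centring, 2 filters on dim probe sets, eBayes with trend and robust, no saturated probe sets, 1 probe set per gene, and leaving out arrays or animals. Deviations of its legs from the group means correlated at 0.0027, -0.0014, 0.134 and 0.0871 in A to D. Array medians were 6.39 to 6.47, and the number of arrays limits the precision.

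The regulators and lists were chosen with earlier results of these data known. Named list genes had the 3 lowest unadjusted p under 0.05 in each direction or the largest log2 fold change. *Prkab1*, *Acaa2*, *Fabp3*, *Acot2*, *Pparg*, *Tfb1m*, *Mapk14*, the genes gained with the block, the marker genes with values and the genes led by 3 arrays were named after their values were seen. Neither protein nor hairpin sequences were used here.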

Additional observations from a re-analysis of the deposited data

Results flagged for a closer look

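Of 72 groups of 4 arrays examined, for the targeted gene, the regulators, the named pathway genes and the list means, 5 had an array apart from the other 3, where the gap to its nearest neighbour, as a share of the range of the group, exceeded the 95% critical value of Dixon. Chance alone gives about 1 in 20. No regulator was among them. D230025D16Rik was 8.80 in the MYTHO array of animal C against 8.08 to 8.20 (gap share 0.833). *Cd36* was 14.55 in the scrmb array of animal A against 14.01 to 14.06 (0.907), and the mean of the genes of mitochondrial DNA upkeep in the same array was 8.07 against 8.18 to 8.19 (0.917). The slow-fibre mean was 13.70 in the scrmb array of animal A against 11.61 to 11.94 (0.842), and 11.68 in the MYTHO array of animal D against 14.43 to 14.88 (0.859).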

How the results depend on the processing

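Under 8 alternatives and 12 fits without an array or an animal, the count of regulators at an adjusted p under 0.05 was 0, and so was that of pathway genes. D230025D16Rik ran from -2.81 to -2.77 in log2 fold change under the former (highest adjusted p 0.0156) and from -3.09 to -2.69 under the latter (0.0369). At an unadjusted p under 0.05, the count of regulators was 0 with the upper 75% and 0 with the upper 50% of probe sets, since *Esrrb* was too dim to be kept, and 0 to 3 in leave-one-out fits. Regulators without overlap numbered 0 with either filter and 1 to 2 in leave-one-out fits. Pathway genes counted as higher numbered 2 to 24 in leave-one-out fits, and those counted as lower 2 with the upper 50%, 2 with trend and robust, and 0 to 2 in leave-one-out fits. The median log2 fold change of the regulators ran from -0.10 to 0.29 in leave-one-out fits and from 0.07 to 0.22 otherwise. The replicate block by animal (a paired fit) gave 1 regulator at an unadjusted p under 0.05, 0 after adjustment, and changed no call of a regulator. It counted 16 pathway genes as higher, of which 4 were not among the 16 of the unpaired fit. Of 457 values of single genes, 450 kept their sign and side of the adjusted threshold and 7 turned in sign: *Ppargc1a* to 0.04, 0.045 and 0.18 without the scrmb, the MYTHO and both arrays of animal A, *Perm1* to -0.12, -0.04 and -0.23 without those of animal B, and *Esrrg* to -0.09 without both arrays of animal B. Over leave-one-out fits they ran from -0.32 to 0.18, from -0.23 to 0.33 and from -0.09 to 0.95. All probe sets at an adjusted p under 0.05 numbered 6, but 160 with trend and robust, 60 without saturated probe sets, 44 with median centring, 3 with 1 probe set per gene, 2 with the block and 1 to 154 in leave-one-out fits. Averaging probe sets of a regulator was not run, since each had 1.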
